A study of Homo sapiens with 9 samples.

Results

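DAZL, DDX4 and 8 genes of the piRNA pathway were followed in the RNA-seq libraries of PC-3 cells, an established line of castration-resistant prostate cancer. The 10 genes were DAZL, DDX4, MAEL, PIWIL1, PIWIL2, PIWIL4, TDRD1, TDRD9, MOV10L1 and ASZ1, taken by symbol from 60617 Ensembl gene identifiers. Each symbol matched 1 identifier. The 9 libraries fell into 3 groups of 3 libraries, namely Ctrl (control), Dec (decitabine) and Dec_Sam (decitabine and SAM, called the combination from here on), all labelled day 5. Decitabine was given at 1 µM and SAM at 200 µM. Controls received a vehicle with sulfuric acid and ethanol in PBS (doses and vehicle from the methods, not from the labels). Cells that received SAM but no decitabine were not analysed here, so an effect of SAM by itself cannot be read from these libraries. All groups are 1 cell line, and nothing in the labels says that the libraries of a group came from separate cultures. P-values then measure only the spread between these libraries, which may be technical.

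The RNA-binding protein DAZL and the RNA helicase DDX4, also called VASA, are expressed in germ cells, where they regulate translation and the fate of RNAs. PIWI-interacting RNAs (piRNAs) are small RNAs that guide PIWI proteins to transposon transcripts and, in fetal male germ cells, also direct DNA methylation to transposons. Many genes of this pathway have CpG-rich promoters that carry DNA methylation in somatic cells. Decitabine is built into DNA and traps DNA methyltransferases, whereas SAM is the methyl donor of these enzymes.

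The promoters were described first, since the treatments act on DNA methylation. Of the 10 genes, 8 had an entry among the RefSeq promoter windows of GRCh38.p14, which span 250 bases before and 50 bases after a transcription start. PIWIL2 and PIWIL4 had none. The 8 genes had 11 windows, with between 1 and 60 CpG sites (median 29), and 10 of these windows lay above the median of 14 CpG sites over all 35116 windows. The second MAEL window of RefSeq held 27 CpG sites and the first held 60, above 99.9% of all windows. The windows of DAZL held 33 and 29, those of TDRD1 17 and 21, and the single windows of TDRD9, MOV10L1, ASZ1 and PIWIL1 held 41, 44, 29 and 30. The start of PIWIL1, which did not rise in these cells, had a CpG count close to those of DAZL and ASZ1, which did. The RefSeq window of DDX4 at chr5:55766635-55766934 held 1 CpG site, but it lies inside the gene, and the window at the GENCODE start of DDX4 held 22. The RefSeq windows of DAZL and ASZ1 and the second window of MAEL lie inside their genes too. In contrast to DDX4, the outermost GENCODE starts of DAZL and ASZ1 had 0 and 4 CpG sites. These are counts of letters in the reference, and methylation of these windows was not measured in the libraries described here.

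Upstream sequences are printed for 6 genes, to show starts of genes that were silent in the controls (DAZL, MAEL, TDRD1, TDRD9), of DDX4 at its GENCODE start, and of PIWIL1, which was already transcribed. Each runs 5′ to 3′ on the strand of its gene over the 250 bases before the start, in GRCh38, with CpG sites in capitals. DAZL is shown at the second of its RefSeq starts, and MAEL and TDRD1 at the first. The positions are chr3:16604791-16605040 on the minus strand for DAZL, and on the plus strand chr1:166975332-166975581 for MAEL, chr10:114179037-114179286 for TDRD1, chr14:103928206-103928455 for TDRD9, chr5:55737767-55738016 for DDX4 and chr12:130337637-130337886 for PIWIL1.
DAZL: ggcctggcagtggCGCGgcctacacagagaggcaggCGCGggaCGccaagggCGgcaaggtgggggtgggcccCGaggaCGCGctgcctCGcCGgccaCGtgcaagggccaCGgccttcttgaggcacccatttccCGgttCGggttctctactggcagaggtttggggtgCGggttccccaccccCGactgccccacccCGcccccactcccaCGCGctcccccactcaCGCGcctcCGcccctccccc
MAEL: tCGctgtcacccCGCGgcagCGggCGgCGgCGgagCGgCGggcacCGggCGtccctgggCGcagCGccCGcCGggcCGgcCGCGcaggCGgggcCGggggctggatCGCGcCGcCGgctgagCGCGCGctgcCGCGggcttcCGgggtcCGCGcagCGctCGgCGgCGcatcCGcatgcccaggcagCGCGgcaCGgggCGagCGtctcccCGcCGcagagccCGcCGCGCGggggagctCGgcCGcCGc
TDRD1: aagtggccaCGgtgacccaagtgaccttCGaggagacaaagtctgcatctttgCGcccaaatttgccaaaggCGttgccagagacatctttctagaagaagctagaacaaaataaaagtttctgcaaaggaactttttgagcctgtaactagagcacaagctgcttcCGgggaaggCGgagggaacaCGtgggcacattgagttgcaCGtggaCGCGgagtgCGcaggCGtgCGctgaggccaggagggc
TDRD9: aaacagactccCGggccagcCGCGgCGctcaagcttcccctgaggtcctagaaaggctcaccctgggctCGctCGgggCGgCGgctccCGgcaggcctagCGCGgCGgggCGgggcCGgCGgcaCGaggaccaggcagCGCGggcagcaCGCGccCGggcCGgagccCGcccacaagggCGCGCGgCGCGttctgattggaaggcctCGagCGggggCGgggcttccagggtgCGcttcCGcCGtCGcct
DDX4: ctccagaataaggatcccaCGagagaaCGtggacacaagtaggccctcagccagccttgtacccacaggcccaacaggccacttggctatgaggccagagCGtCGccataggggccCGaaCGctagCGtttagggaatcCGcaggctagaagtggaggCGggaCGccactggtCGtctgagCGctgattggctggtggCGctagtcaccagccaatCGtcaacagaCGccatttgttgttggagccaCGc
PIWIL1: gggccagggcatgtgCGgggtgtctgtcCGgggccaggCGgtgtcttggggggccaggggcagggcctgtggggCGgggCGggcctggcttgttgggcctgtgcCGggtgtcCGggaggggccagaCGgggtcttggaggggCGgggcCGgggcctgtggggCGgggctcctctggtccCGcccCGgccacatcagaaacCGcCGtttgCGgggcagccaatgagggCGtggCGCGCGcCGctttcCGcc
In the sequence of TDRD1, the letters CACGTG occur at 65 and 45 bases before the start, and in that of DAZL once, at 154 bases before it. CACGTG is the E-box bound by MAX and MGA, subunits of a complex known to keep germ cell genes silent. Both strands were searched, and the E-box was in 4 of the 11 windows, from 3 genes (DAZL, MAEL and TDRD1), and in 7.26% of all windows. The windows of TDRD1 overlap and hold the same pair of E-boxes. The motif TCCCGC of the repressor E2F6 was in 7 of the 11 windows, from 6 genes, and in 26.9% of all windows. Both motifs hold a CpG site, and they do not overlap each other. The windows of these genes had a median of 29 CpG sites, beside 14 over all windows. The shares over all windows were not matched for CpG count, so no enrichment of either motif can be read from them. The E2F6 motif lies 213 bases before the start in DAZL and 74 bases before it in PIWIL1, the gene that did not rise. The first RefSeq windows of DAZL and MAEL held no E-box, and that of DAZL no E2F6 motif. At the GENCODE start of DDX4 there was 1 E-box, 22 bases after the start and so outside the sequence printed. There was also 1 E2F6 motif, 93 bases before the start. The outermost GENCODE starts of DAZL and ASZ1 had 0 of either motif. The matches describe these windows and say nothing about binding in PC-3 cells.

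**Figure D1:**
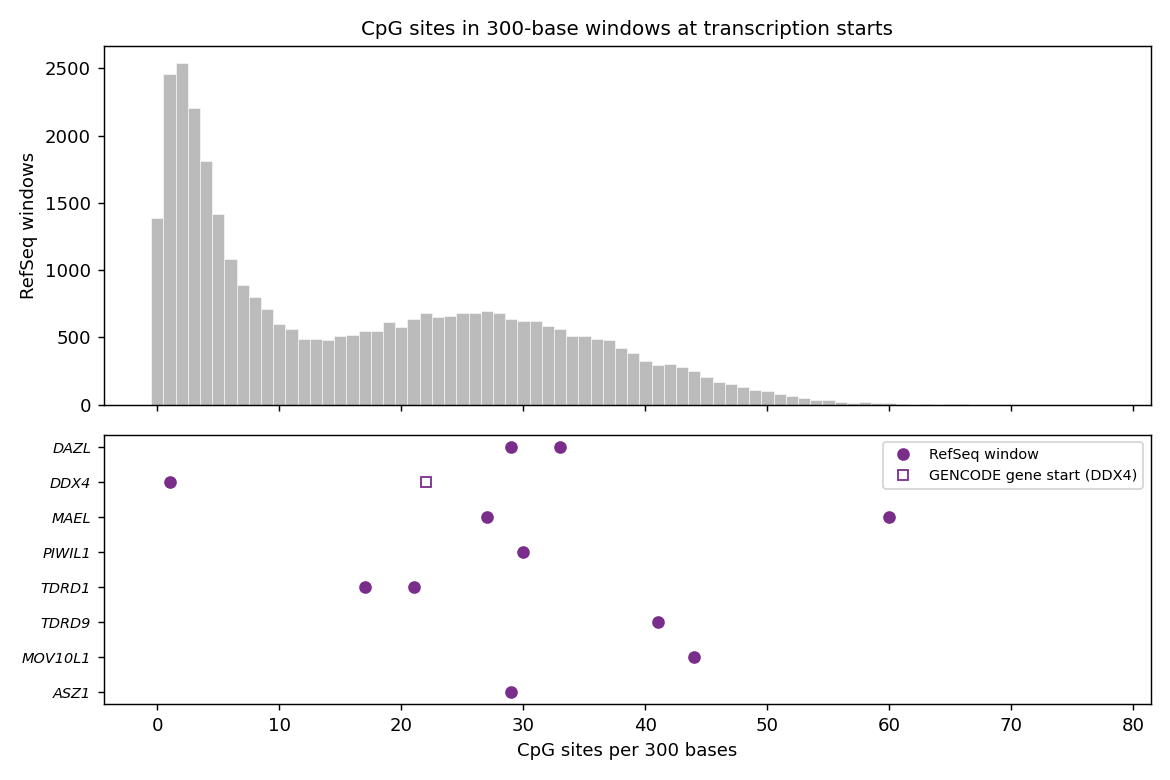
CpG sites in promoter windows of 300 bases. The upper panel is a histogram of the CpG count (horizontal axis) over all 35116 RefSeq windows (vertical axis, number of windows), and the lower panel marks the windows of the 8 genes with an entry, with an open square for the GENCODE start of DDX4. All RefSeq windows of the 8 genes but that of DDX4 lie to the right of the median of 14. The GENCODE starts of DAZL and ASZ1, with 0 and 4 CpG sites, are not drawn.

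In the control libraries, 4 of the 10 genes had no counts (DAZL, MAEL, TDRD1 and TDRD9) and 5 had 2 to 13 counts per library. PIWIL1, with 256 to 332 counts, was the exception. After decitabine, 9 of the 10 genes were higher than in the controls and 0 were lower at the threshold of 0.05 on the adjusted p of edgeR's quasi-likelihood test over 18532 genes. The count of 0 was the same at an unadjusted p under 0.05, with DESeq2 and with voom and limma. Over all genes tested, 36.3% were called higher and 32.5% lower. With the combination, 9 genes were higher and 1 was lower, where 35.9% of all genes tested were higher and 31.3% lower. The median log2 fold change of the 10 genes was 5.00 with decitabine and 4.43 with the combination, beside 0.03 and 0.05 over all genes tested. Only PIWIL1 and PIWIL4 would have passed the filter on low counts with the controls alone. The other 8 were tested because of their counts in the treated libraries and had to differ. These tallies, and the adjusted p-values of those 8 genes against the controls given below, are therefore a description. Both treatments were compared with the same 3 controls, and their values are given side by side for that reason. In bulk RNA, more cells that express a gene and more RNA per cell cannot be told apart.

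**Figure D2:**
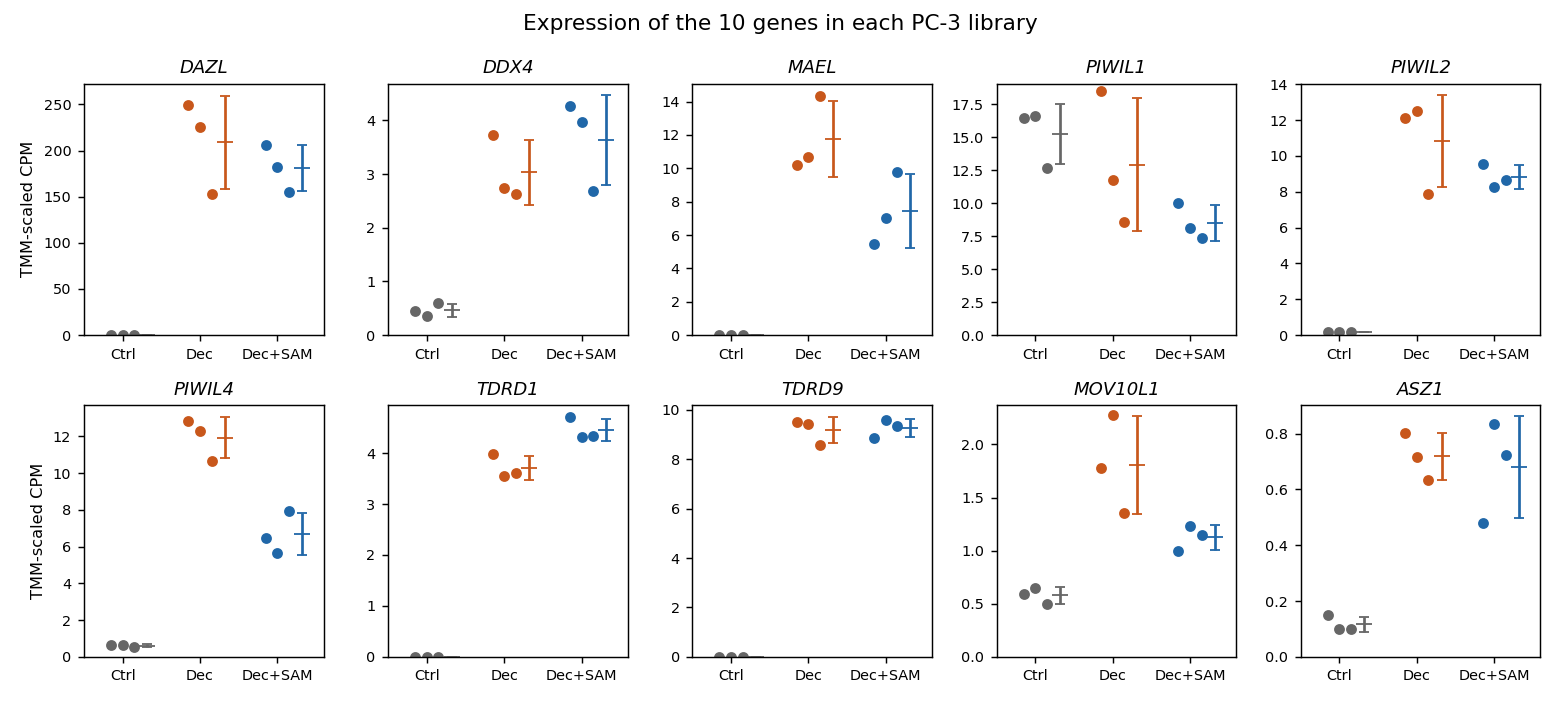
Level of each of the 10 genes in each library, as CPM (counts scaled to the library's TMM-adjusted total), on a linear vertical axis that starts at 0 and differs between panels. Points are libraries of the control (Ctrl), decitabine (Dec) and combination (Dec+SAM) groups, and the bar beside them is the mean ± SD of 3 libraries. Treated libraries lie above all controls in each panel except that of PIWIL1.

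DAZL (ENSG00000092345, chromosome 3, 16586792 to 16670306, minus strand) was the most abundant of the 10 genes after treatment. It had 0 counts in each control, 5890, 5355 and 3602 counts with decitabine, and 4731, 4129 and 3648 counts with the combination. The groups of treated libraries overlapped, and each was far above the controls. In CPM, counts scaled to the library's total after TMM adjustment, this was 209 ± 50.4 (SD, n = 3) with decitabine and 181 ± 25.3 (SD, n = 3) with the combination. With the controls set to 3 counts over the group, DAZL was at least 4211-fold higher with decitabine (adjusted p = 2.5e-06) and at least 3640-fold higher with the combination (adjusted p = 2.9e-06). These p-values, like those beside the lower bounds of other genes, belong to the fitted log2 fold changes and not to the bounds. The 4 DAZ genes of chromosome Y, its close relatives, were given 0 counts over the 9 libraries together.

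DDX4 (ENSG00000152670, chromosome 5, 55738017 to 55817157, plus strand) had a low level in every control, with 9, 7 and 12 counts. With decitabine the counts were 88, 65 and 62, and with the combination 98, 90 and 63. Every treated library was thus above every control, while the treated groups overlapped. The control level of 0.463 ± 0.122 CPM (SD, n = 3) compares with 3.03 ± 0.602 CPM after decitabine and 3.64 ± 0.84 CPM after the combination. The log2 fold change was 2.69 (SE 0.30, adjusted p = 1.8e-06) with decitabine and 2.96 (SE 0.29, adjusted p = 6.6e-07) with the combination. DDX4 overlaps SLC38A9 on the opposite strand without sharing an exon base.

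The PIWI proteins are the Argonaute-family partners of piRNAs. PIWIL2 and PIWIL4 rose with both treatments, whereas PIWIL1 was not called with decitabine and fell with the combination. PIWIL2 (ENSG00000197181, chromosome 8, 22275316 to 22357568), which takes part in making piRNAs and in their amplification, had 4 counts in each control. It had 286, 296 and 186 counts with decitabine and 219, 188 and 203 with the combination. The treated groups overlapped through decitabine replicate 3, which held the fewest counts of the 6. Its log2 fold change was 5.73 (SE 0.28, adjusted p = 5.8e-10) with decitabine and 5.43 (SE 0.28, adjusted p = 1.2e-09) with the combination.

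PIWIL4 (ENSG00000134627, chromosome 11, 94543840 to 94621421), the nuclear PIWI protein that directs DNA methylation to transposons, had 13, 13 and 11 counts in the controls. It had 304, 291 and 252 counts with decitabine and 149, 128 and 186 with the combination. All 3 groups were separate, with the combination in the middle. The level was 0.613 ± 0.0606 CPM (SD, n = 3) in the controls, 11.9 ± 1.13 CPM with decitabine and 6.68 ± 1.16 CPM with the combination. Its log2 fold change was 4.27 (SE 0.20, adjusted p = 4.5e-10) with decitabine and 3.44 (SE 0.21, adjusted p = 5.5e-09) with the combination. PIWIL4 shares 602 of its 4498 exon bases with FUT4, a fucosyltransferase gene on the same strand, and the values of both are uncertain to that extent. FUT4 rose by 1.03 (adjusted p = 8.8e-07) and 0.90 (adjusted p = 3.6e-06) on the log2 scale, and between the treatments it had a log2 fold change of -0.13 (adjusted p = 0.41). A further 489 bases are shared with PIWIL4-AS1 on the opposite strand, which had 0 to 2 counts per library.

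PIWIL1 (ENSG00000125207, chromosome 12, 130337887 to 130372637), the PIWI protein of later male germ cells, had 331, 332 and 256 counts in the controls. It had 437, 278 and 202 counts with decitabine and 229, 184 and 173 with the combination. The decitabine libraries spanned the whole range of the controls and beyond, while those of the combination all lay below the controls. The level was 15.2 ± 2.24 CPM (SD, n = 3) in the controls, 12.9 ± 5.07 CPM with decitabine and 8.48 ± 1.34 CPM with the combination. With decitabine the log2 fold change was -0.24 (SE 0.25, adjusted p = 0.42), with a 95% interval from -0.848 to 0.374. It turned to 0.00722 (adjusted p = 0.98) with scaling by library size alone, and without decitabine replicate 1 it was -0.59 (adjusted p = 0.0086). With the combination PIWIL1 fell by 0.85 (adjusted p = 0.015) on the log2 scale, and this was not called without combination replicate 3 (-0.76, adjusted p = 0.058).

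Among the factors that work with PIWI proteins, MAEL, TDRD1 and TDRD9 had no counts in the controls and 84 or more in every treated library. MAEL (ENSG00000143194, chromosome 1, 166975582 to 167022214), a protein of the germ cell granules in which transposons are silenced, had 0 counts in each control, 241, 253 and 339 with decitabine and 125, 160 and 230 with the combination. The decitabine libraries lay above those of the combination without overlap. MAEL was at least 236-fold higher than in the controls with decitabine (adjusted p = 6.2e-08) and at least 150-fold higher with the combination (adjusted p = 1.8e-07). TDRD1 (ENSG00000095627, chromosome 10, 114179270 to 114232666), a Tudor-domain scaffold that binds methylated arginines of PIWI proteins, had 0 counts in each control, 94, 84 and 85 with decitabine and 108, 98 and 102 with the combination. Here the combination gave the higher counts, again without overlap. The lower bounds of its increase were 74.6-fold (adjusted p = 8.2e-09) and 89.6-fold (adjusted p = 5.1e-09).

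TDRD9 (ENSG00000156414, chromosome 14, 103928456 to 104052667), a Tudor-domain protein with a helicase domain that works with PIWIL4, had nearly even counts across the treated libraries. It had 0 counts in each control, 225, 224 and 203 with decitabine and 204, 218 and 219 with the combination, so that the treated groups overlapped nearly whole. It was at least 185-fold higher with decitabine (adjusted p = 3e-10) and at least 187-fold higher with the combination (adjusted p = 3.3e-10).

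MOV10L1 and ASZ1 had the lowest counts of the 10 genes after treatment. MOV10L1 (ENSG00000073146, chromosome 22, 50090006 to 50161690), the helicase that binds piRNA precursors, had 12, 13 and 10 counts in the controls, 42, 54 and 32 with decitabine and 23, 28 and 27 with the combination. The 3 groups did not overlap, with the combination in the middle as for PIWIL4. Its log2 fold change was 1.63 (SE 0.28, adjusted p = 0.00015) with decitabine and 0.95 (SE 0.30, adjusted p = 0.011) with the combination. ASZ1 (ENSG00000154438, chromosome 7, 117363222 to 117428123), a mitochondrial anchor of the granules in which piRNAs are made, had 3, 2 and 2 counts in the controls. It had 19, 17 and 15 with decitabine and 11, 19 and 17 with the combination, and the treated groups overlapped. Its log2 fold change was 2.58 (SE 0.44, adjusted p = 0.00013) with decitabine and 2.50 (SE 0.45, adjusted p = 0.00019) with the combination. At these counts the precision is low, as the errors show. ASZ1 overlaps CFTR on the opposite strand without sharing an exon base, and CFTR too had 0 counts in each control, with 19, 15 and 24 counts with decitabine and 12, 17 and 25 with the combination.

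The combination treatment was then compared with decitabine, which gives the difference seen when SAM was added to decitabine. Without cells given SAM alone, a changed response to decitabine and an effect of SAM by itself cannot be told apart. Of the 10 genes, 1 was lower (PIWIL4) and 0 were higher. At an unadjusted p under 0.05, with DESeq2 and with voom and limma, 0 were higher too, and 4, 3 and 2 were lower. In the fit reported, at the adjusted threshold, 8.02% of all genes tested were lower and 7.67% higher. PIWIL4 was lower by a log2 fold change of -0.84 (SE 0.14, adjusted p = 0.0028, 95% interval -1.19 to -0.482), and it was called in each of 17 alternative settings, from -0.976 to -0.725. The median log2 fold change of the 10 genes was -0.252, beside 0.00214 over all genes tested.

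Of the other 9 genes, MAEL, PIWIL1 and MOV10L1 had differences of similar size that did not pass the threshold. MAEL had a log2 fold change of -0.66 (SE 0.21, adjusted p = 0.061), PIWIL1 of -0.61 (SE 0.26, adjusted p = 0.14) and MOV10L1 of -0.67 (SE 0.25, adjusted p = 0.084). Their 95% intervals, not corrected for the number of genes, were -1.18 to -0.137, -1.24 to 0.0212 and -1.29 to -0.0553. The interval of PIWIL1 included 0 although its unadjusted p in edgeR's quasi-likelihood test was 0.041. The intervals were built apart from the test and can differ from it. These calls depended on the method or on single libraries. MAEL was called in 5 of 17 alternatives, among them DESeq2 (adjusted p = 0.027), voom with limma (0.03) and the fit without combination replicate 3 (0.0063). A block for the replicate number called both MAEL (adjusted p = 0.006) and PIWIL1 (adjusted p = 0.016). PIWIL1 was called in 4 of 17, among them DESeq2 (0.045) and the fit without decitabine replicate 3 (0.018). Without that library, MOV10L1 (-0.84, adjusted p = 0.04), PIWIL2 (-0.48, adjusted p = 0.024) and DAZL (-0.39, adjusted p = 0.038) were called lower too, so that 5 genes were lower in place of 1. The number of all genes called lower also moved with the library left out, between 480 and 1997, beside 1487 in the fit reported. The change from 1 to 5 is therefore a description and sets these genes apart in no way.

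The other genes were not called, with differences whose 95% intervals included 0. DAZL had a log2 fold change of -0.21 (SE 0.20, adjusted p = 0.55, 95% interval -0.709 to 0.292) and PIWIL2 one of -0.30 (adjusted p = 0.23, interval -0.688 to 0.0981). DDX4 and TDRD1 pointed the other way, with 0.26 (adjusted p = 0.46, interval -0.281 to 0.805) and 0.27 (adjusted p = 0.32, interval -0.15 to 0.68). For ASZ1 the interval from -0.848 to 0.688 left room for a change in either direction. TDRD9 had the narrowest interval, from -0.299 to 0.324 around 0.01 (adjusted p = 0.96).

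**Figure D3:**
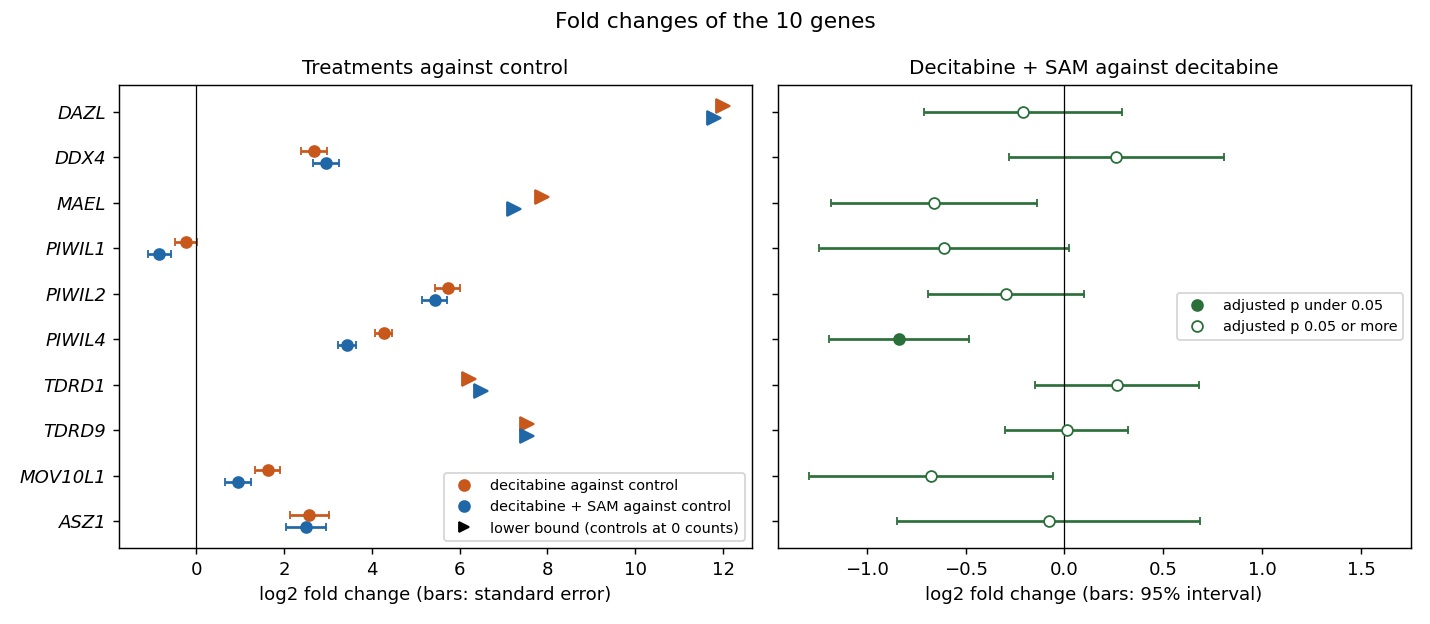
Log2 fold changes of the 10 genes. Left, decitabine and the combination against control (circles with SE, triangles for lower bounds where the controls had 0 counts); right, the combination against decitabine with 95% intervals, filled where the adjusted p was under 0.05. On the left, PIWIL1 is the single gene at or below 0, and on the right only PIWIL4 is filled.

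To compare levels between genes, CPM were divided by the length of the longest annotated transcript in kilobases. On this scale DAZL reached 67.4 ± 16.2 CPM per kb (SD, n = 3) with decitabine and 58.3 ± 8.15 with the combination, above 95.2% and 94.1% of the genes tested with a known length. The next levels with decitabine were those of MAEL (4.98 ± 0.968), PIWIL1 (3.32 ± 1.3) and PIWIL4 (3.17 ± 0.301), of which PIWIL1 overlapped each of the other two. PIWIL2 (2.12 ± 0.5), TDRD9 (1.92 ± 0.107) and DDX4 (1.06 ± 0.211) followed, of which PIWIL2 overlapped TDRD9 and also PIWIL1. TDRD1 (0.455 ± 0.0288), MOV10L1 (0.456 ± 0.117) and ASZ1 (0.248 ± 0.029) were lowest, and MOV10L1 and TDRD1 could not be ordered. In the controls, PIWIL1 at 3.91 ± 0.576 CPM per kb stood above 50% of the genes tested, whereas the other 9 genes were at or below 0.163. The order below DAZL depends on the transcript taken, since with the median transcript length PIWIL1 was at 22.7 and TDRD9 at 14.4 CPM per kb after decitabine.

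The other genes of the piRNA pathway were described with a list of 22 genes, of which 16 had enough counts to be tested. With decitabine 13 were higher, 3 were not called and 0 were lower (0 also at an unadjusted p under 0.05, with DESeq2 and with voom and limma), and with the combination 14 were higher and 1 lower. Over all genes tested, 36.3% and 35.9% were higher and 32.5% and 31.3% lower. Of the 16 genes, 8 passed the filter only through the treated libraries and had to be higher, so these tallies too are a description. The median log2 fold changes were 3.91 and 4.24. They were 3.3, 5.76 and 3.3 with decitabine and 3.21, 5.23 and 3.7 with the combination when control replicates 1, 2 and 3 were left out. TDRD5, a Tudor-domain protein needed for piRNA production, had no counts in any library, and PIWIL3, EXD1, RNF17, DNMT3L and MORC1 had at most 12 counts in any library and were not tested.

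GTSF1, which assists PIWI proteins in cleaving their targets, had 0 counts in the controls and was at least 82.8-fold and 79.1-fold higher with decitabine and the combination. The co-chaperone FKBP6 was at least 91.6-fold and 76.5-fold higher, and GPAT2, a mitochondrial protein of piRNA biogenesis, at least 236-fold and 271-fold. BTBD18, a regulator of piRNA precursor transcription, was at least 180-fold higher with either treatment. The Tudor-domain genes STK31, TDRD12 and TDRD6 rose by 7.34, 6.41 and 6.24 on the log2 scale with decitabine and by 7.27, 6.51 and 6.69 with the combination. PNLDC1, the nuclease that trims piRNA ends, rose by 5.11 and 5.16.

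Smaller increases were seen in genes with more counts in the controls. TEX15 and SPOCD1, which take part in piRNA-directed DNA methylation, rose by 2.72 and 2.09 on the log2 scale with decitabine and by 3.32 and 2.21 with the combination. HENMT1, which methylates piRNA ends, rose by 2.09 and 2.38, and TDRD7 by 1.96 and 1.18. MYBL1, the transcription factor that drives piRNA genes in meiosis, rose by 0.44 and 0.31. Its partner TCFL5 had a log2 fold change of -0.17 with decitabine (adjusted p = 0.17) and fell by 0.33 with the combination (adjusted p = 0.014), which was not called without combination replicate 1 (-0.26, adjusted p = 0.058). PLD6, a mitochondrial nuclease of piRNA production, had 0.03 (adjusted p = 0.81) with decitabine and rose by 0.28 (adjusted p = 0.013) with the combination. PLD6 was not called without control replicate 3 (0.21, adjusted p = 0.076), without combination replicate 2 (0.24, adjusted p = 0.063) or without the filter (0.25, adjusted p = 0.051). TDRKH, the mitochondrial partner of PIWI proteins, had -0.02 with each treatment and was not called.

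Between the treatments, 2 of the 16 genes were higher with the combination and 1 was lower, and the median log2 fold change was 0.0271. Over all genes tested, 7.67% were higher and 8.02% lower, so these small counts do not set the list apart. TDRD7 had 1472, 1371 and 1371 counts with decitabine and 659, 730 and 1012 with the combination, and its log2 fold change of -0.78 (adjusted p = 0.0017) was called whichever single library was left out. TDRD6 and TEX15 were higher by 0.46 (adjusted p = 0.022) and 0.60 (adjusted p = 0.029). These calls did not hold in all omissions of 1 library, although the values kept their sign and size (0.399 to 0.542 for TDRD6 and 0.506 to 0.684 for TEX15). TDRD6 was not called without decitabine replicates 2 or 3 (adjusted p = 0.1 and 0.05) or combination replicates 1 or 2 (0.081 and 0.12). TEX15 was not called without decitabine replicates 2 or 3 (0.13 and 0.051) or combination replicate 2 (0.15). The genes called between the treatments stood on both sides of 0, as did those among all genes tested.

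**Figure D4:**
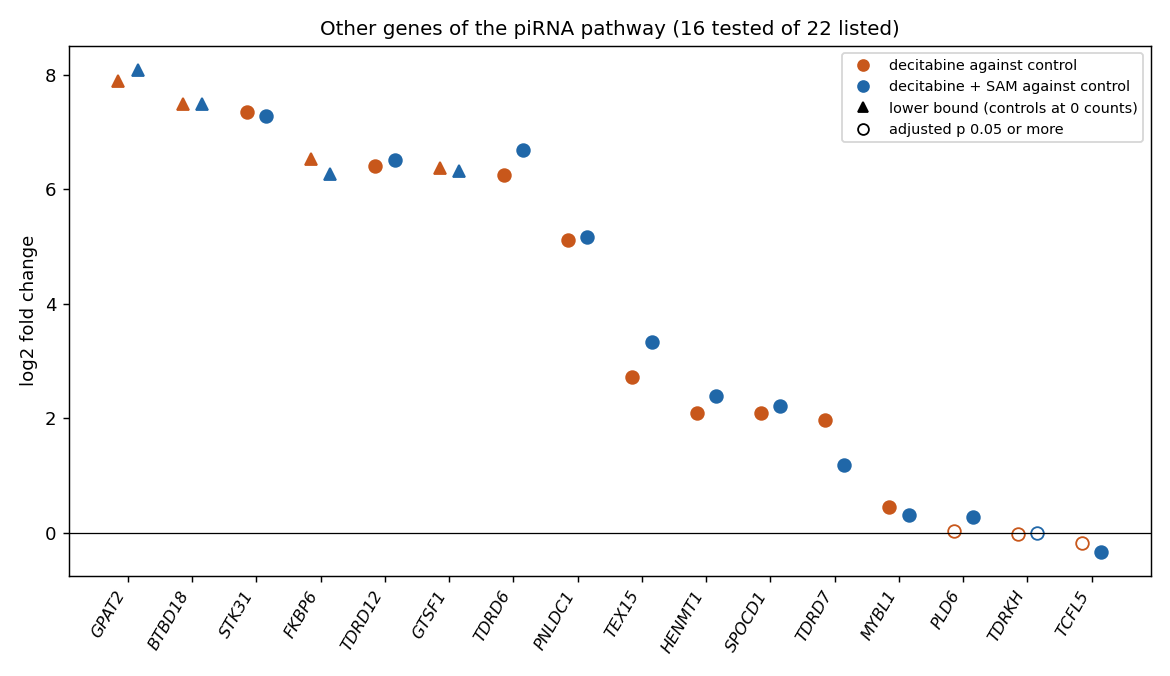
Log2 fold changes of the 16 tested genes of the piRNA pathway list, with decitabine (orange) and the combination (blue) against control. Triangles are lower bounds for genes with 0 counts in the controls, and open circles did not pass the test. All but MYBL1, PLD6, TDRKH and TCFL5 lie above 1 with both treatments.

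DAZL and DDX4 were also set beside 15 other regulators of RNA in germ cells, of which 13 were tested. With decitabine 7 were higher, 4 lower and 2 not called, and with the combination again 7, 4 and 2. Over all genes tested, 36.3% and 35.9% were higher and 32.5% and 31.3% lower, so the share of lower genes in the list was close to that of all genes. Of the 13 genes, 4 passed the filter only through the treated libraries. The medians of the log2 fold change were 0.782 and 0.916. Without control replicate 1 only 4 were higher with decitabine, and without combination replicate 3 the median with the combination was 0.387. With only the 6 libraries compared, the median with decitabine was 0.187. The largest fitted increases were those of BOLL, a relative of DAZL, of TEX14, which keeps germ cells joined by bridges, and of DND1, a partner of NANOS proteins. BOLL had 0, 1 and 0 counts in the controls, 8, 15 and 12 with decitabine and 11, 23 and 25 with the combination, a ratio of 29.8 with decitabine (95% counting interval 5.01 to 1209). TEX14 and DND1 rose by 3.72 and 2.56 on the log2 scale with decitabine. NANOS2 had no counts in any library. Between the treatments 0 of the 13 genes were called in edgeR's quasi-likelihood test, also at an unadjusted p under 0.05, with DESeq2 and with voom and limma, and the median was 0.0654. Over all genes tested, 7.67% were higher and 8.02% lower in that comparison.

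The labels were checked against markers of other cell types. The epithelial markers KRT8, KRT18, KRT19, EPCAM and CDH1 had sums of 875 to 956 CPM in control libraries, 869 to 921 in decitabine libraries and 727 to 867 in combination libraries. Behind these sums the genes moved in different directions. The adhesion gene CDH1 rose by 2.94 and 3.17 on the log2 scale (adjusted p = 3e-10 and 1.4e-10) and the keratin KRT8 by 1.14 and 0.80 (adjusted p = 1.6e-08 and 5.1e-07). KRT19 fell, with -0.58 and -0.66 (adjusted p = 5.8e-05 and 2e-05), KRT18 had -0.25 and -0.43 (adjusted p = 0.014 and 0.00031) and EPCAM was not called. HOXB13, a transcription factor of the prostate lineage, was at 590 ± 8.82 CPM (SD, n = 3) in the controls and fell with both treatments, with log2 fold changes of -1.46 and -1.39 (adjusted p = 1.5e-06 and 2.4e-06). None of 9 markers of spermatids could be tested, 5 of them had no counts in any library (PRM1, PRM2, TNP1, TNP2 and AKAP4), and their sum was at most 0.337 CPM in any library. Of 9 markers of Sertoli and Leydig cells, 3 were tested (AMH, DHH and INSL3), FSHR and LHCGR had no counts, and the sums were 3.23 to 4.49, 6.17 to 7.88 and 7.62 to 9.2 CPM in the same order of groups. INSL3, a hormone of Leydig cells, rose by 1.46 and 1.17 on the log2 scale with decitabine and the combination (adjusted p = 0.00035 and 0.0024). DHH, a ligand secreted by Sertoli cells, rose by 1.93 and 2.34 (adjusted p = 0.00025 and 3.7e-05). The Sertoli cell hormone AMH had 0.15 with decitabine (adjusted p = 0.55) and rose by 0.80 with the combination (adjusted p = 0.0032). The part of these markers in the results was not tested.

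The genes whose pattern over the 9 libraries was most like that of DAZL were sought among the 14314 tested genes that averaged 50 or more counts in some group. Likeness was the root mean square difference between gene-centred log2 CPM. PNMA5 (0.341), TKTL1 (0.453), TEX13C (0.792), XIST (0.859) and UPK1B (0.862) were closest. None is a gene of the piRNA pathway. PNMA5 had 1, 0 and 0 counts in the controls, 4217, 4229 and 3322 with decitabine and 3086, 3386 and 3133 with the combination, so that decitabine replicate 3 was lowest of its group in both genes. TKTL1, a transketolase-like gene, had 3, 0 and 0 counts in the controls and 5280 to 5764 in the treated libraries. With decitabine it had 5316, 5764 and 5284 counts, so replicate 3 was lowest here too, but close to replicate 1. Of the other 9 genes, TDRD9 (2.07) and MAEL (2.12) were nearest to DAZL and PIWIL1 (5.49) was farthest. The 9 points behind each distance share the step between control and treated libraries.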

How the data were processed

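RNA-seq was analysed in 9 libraries of PC-3 cells, with groups and replicate numbers taken from the labels. According to the submitters' processing notes and the paper, the authors trimmed reads with Trim Galore, quantified them with kallisto (0.4.6 in the notes) against GRCh38.p13 and deposited estimated counts per Ensembl identifier that were not normalized. The deposited log-scale values were not used. Whether strand was used, and from where the replicates came, is not given in the sources used here. The 10 genes and all gene lists were chosen with earlier results of these data known.

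Counts were rounded (totals 21934045 to 22489534) and identifiers were named with GENCODE (60357 of 60617 matched; 22833 had no counts). edgeR 4.0.16 (R 4.3.3) was run on the 18532 genes passing filterByExpr, with TMM scaling (factors 0.895 to 1.078), robust dispersions and the quasi-likelihood test over 9 libraries, with Benjamini-Hochberg adjustment over all genes tested and a threshold of 0.05. Adjusted p-values are from this fit unless another tool is named. CPM were scaled with TMM. Lower bounds took 3 counts over a group at 0, and bounds and counting intervals cover counting error only. Pairs of libraries in a group differed beyond sampling noise (chi-square per degree of freedom 5.86 to 23.5). The scripts were tested on simulated data. Alternatives were voom with limma 3.58.1, DESeq2 1.42.0 or its size factors in edgeR, scaling by library size alone, a filter at a mean of 10 counts or no filter, a fit to the 6 libraries of a comparison, a block for the replicate number, and omission of each library.

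The genes named were the 10 genes, every called or countless gene of the piRNA list, the 3 largest called changes with decitabine of the lists of germ cell RNA regulators and of meiosis, and the 5 genes most like DAZL. FUT4, CFTR and SLC38A9 were named because they overlap a member, and single marker and meiosis genes after their values were seen. Promoter windows came from RefSeq, GRCh38.p14.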

Additional observations from a re-analysis of the deposited data

How the results depend on the processing

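For the 10 genes, the calls against the controls held in all 17 alternatives, except those of PIWIL1. Scaling by library size alone turned PIWIL1 with decitabine to 0.00722 on the log2 scale. This scaling raised the median of all genes tested to 0.281 (decitabine) and 0.268 (combination), and lowered the number of genes called lower to 3746 and 3857. It also left 0 genes of the piRNA list lower with the combination. When each library was left out, between 0 and 1 of the 10 genes were lower with decitabine and between 0 and 1 with the combination. Likewise 0 to 1 genes of the piRNA list were lower with either treatment, and 4 to 8 of the germ cell RNA regulators were higher with decitabine, whose median log2 fold change lay between 0.57 and 1.04, and between 0.387 and 1.1 with the combination. That median was 0.187 and 0.706 with only the 6 libraries compared, 0.452 and 0.586 without the filter, and 0.51 and 0.702 at a mean of at least 10 counts. The median of the piRNA list lay between 3.3 and 5.76 with decitabine and between 3.21 and 5.23 with the combination when each library was left out, and was 3.08 and 3.2 without the filter. That of the meiosis list was 2.8 and 2.56 without the filter.

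Between the treatments, 1 of the 10 genes was lower in the fit reported, where 8.02% of all genes tested were lower. The number was 3 with DESeq2, 2 with voom and limma and 3 without the filter. The shares of all genes called in these 3 settings are not given here, so the counts are a description. Leaving out each library gave 1 to 5 of the 10 genes lower (5 without decitabine replicate 3, 2 without combination replicate 3), 381 to 2066 of all genes higher and 480 to 1997 lower. It gave 0 to 3 higher genes of the piRNA list, 0 to 1 of the germ cell RNA regulators and 0 to 3 of the meiosis list, and 0 to 1 lower genes of the meiosis list. With voom and limma 2 meiosis genes were lower. TDRD9, near 0, changed sign with library size alone (-0.0117) and in single-library omissions (-0.0333 and -0.0104, highest value 0.039), as did ASZ1 (0.00733 and 0.113, lowest value -0.25). The causes were not tested.

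With the replicate number as a block, the combination was called below decitabine in 3 of the 10 genes. The share of all genes called lower with the block is not given here, so this count too is a description. The 3 genes were PIWIL4, MAEL (adjusted p = 0.006) and PIWIL1 (adjusted p = 0.016). The fit reported did not pair libraries by number, and the sources used here do not say whether the numbers pair them. In their deviations from the group means, same-numbered libraries correlated between -0.0165 and 0.233 and other pairs between -0.22 and 0.0579. Of 9 libraries, 7 correlated best with their own number. Between decitabine and the combination, same-numbered libraries had 0.233, 0.0359 and 0.229, and others -0.22 to 0.0141. The calls between the treatments thus depend on whether the libraries are paired. With 3 libraries a group and under 20 counts in ASZ1, changes of moderate size could not be detected in the rarest genes.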

Other observations

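Of 24 listed meiosis genes 16 were tested, 10 of which passed the filter only through the treated libraries, and with decitabine 13 were higher and 3 lower, and the median log2 fold change was 3.22 (3.06 with genes at 0 in the controls set to their lower bound). With the combination 13 were higher, 2 lower and 1 not called, with a median of 3. Over all genes tested, 36.3% and 35.9% were higher and 32.5% and 31.3% lower, with medians of 0.03 and 0.05. Because of the filter, these tallies are a description. The genes called lower with decitabine were SYCE2 (-1.54), MSH5 (-0.87) and YTHDC2 (-0.50), of which YTHDC2 was not called with the combination. By the fitted log2 fold change, the largest increases were in SYCP3 and SYCE1, of the synaptonemal complex that holds paired chromosomes together, and in HORMAD1, of the chromosome axis. SYCP3 had 1, 0 and 0 counts in the controls and 694, 627 and 599 with decitabine, a ratio of 1634 (95% counting interval 293 to 64559). HORMAD1 was at least 170-fold and SYCE1 at least 37.7-fold higher with decitabine. The place of SYCE1 depends on the fit, since MEIOB, a gene of meiotic recombination, had a ratio of 124 (95% counting interval 48.1 to 456). Against decitabine, the combination had 2 higher and 1 lower gene and a median of 0.0365, beside 7.67% higher and 8.02% lower over all genes tested. None of these 3 calls was made without decitabine replicate 2 or without combination replicates 1 or 2, where 0 genes of the list were called, and 1 higher gene was called without decitabine replicate 3. SPO11, the enzyme that starts meiotic recombination, had no counts in any library.

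Of 12 markers of germ cell identity 4 were tested. SALL4, PRDM1 and ID4 were higher with each treatment and TFAP2C was not called, where 36.3% and 35.9% of all genes tested were higher. PRDM1 and ID4 had at most 4 counts in any control and were tested because of their counts in the treated libraries. SALL4 had 19, 21 and 20 counts in the controls, 196, 179 and 182 with decitabine and 254, 246 and 217 with the combination, whereas UTF1 and DPPA3 had no counts in any library. POU5F1, NANOG, KIT, SOX17, PRDM14 and ZBTB16 had at most 11 counts in any library and were not tested. Against decitabine, 1 of the 4 tested markers was higher with the combination, beside 7.67% of all genes tested.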
